A study of Homo sapiens with 16 samples.

Results

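The 4 libraries titled zdna1 compared CL with CC in U2OS, an established human osteosarcoma cell line. They were chosen by their titles, CL replicates 1 and 2 against CC replicates 1 and 2, and they are 4 of the 16 libraries of the series. All 16 were made from total RNA of U2OS cells, and the genotype field of the labels reads zdna1_CC or zdna1_CL for these. The labels spell out neither zdna1, CC nor CL, name no treatment and do not say whether replicates were separate cultures, so neither arm is taken as the control here, and each p-value measures the spread between libraries, which may be technical. The title of the series names MYC, the histone chaperone FACT and Z-DNA, a left-handed helix. Each number (zdna1 to zdna4) has CC and CL libraries of its own, so the comparisons of different numbers share no library.

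RNA polymerase III makes short, abundant RNAs that are never translated. Among them are the RNA scaffold of the signal recognition particle, which delivers secreted and membrane proteins to the endoplasmic reticulum, and the catalytic RNAs of RNase P and RNase MRP, which trim transfer RNA and ribosomal RNA precursors. It also makes the 5S ribosomal RNA, the 7SK RNA that restrains elongation by RNA polymerase II, the Y RNAs and the U6 and U6atac RNAs of the spliceosomes. Its transcripts end in a run of T in the coding strand. U2OS cells are of mesenchymal origin and express collagens and cytoskeletal genes, which make up many of the other genes described here.

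RNU6ATAC, the U6atac RNA of the minor spliceosome, is printed because it had the largest rise among the genes called. Capitals mark its terminal run of T. The sequence is the GENCODE 29 transcript, 5′ to 3′, in the letters of the coding strand.
RNU6ATAC: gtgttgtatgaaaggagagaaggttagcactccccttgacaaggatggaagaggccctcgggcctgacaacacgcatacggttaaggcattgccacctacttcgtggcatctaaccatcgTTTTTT

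The CC replicates held 111166 and 170980 reads assigned to human genes, and the CL replicates 144658 and 157328 (a read pair counts as 1 read). Levels are in CPM, reads scaled to a common total of human-gene reads, and 1 read was worth 5.849 to 8.996 CPM before the adjustment between libraries. Each library also had reads on an extra reference sequence of its own, the zdna1 contig, kept apart from the human genes: 41721 and 59262 reads in CC, against 586 and 514 in CL. These were 27.3% (95% exact binomial interval 27.1% to 27.5%) and 25.7% (25.6% to 25.9%) of assigned reads in CC, and 0.403% (0.372% to 0.437%) and 0.326% (0.298% to 0.355%) in CL, and the intervals cover counting error only. Of the mesenchymal markers, VIM, COL1A1, SPARC and CD44 held 45 to 272 reads in each library and RUNX2 held 1 to 5, while TWIST1, SP7, BGLAP, IBSP and COL1A2 had none in any. The summed level of 10 blood cell markers was 19.0 to 51.3 CPM and that of 5 endothelial markers 0 to 26.6 CPM. It was 171 to 293 CPM for 8 neuronal markers, among them NEFL (7 to 21 reads) and TUBB3 (8 to 16). For 11 muscle markers it was 108 to 177 CPM, among them TNNT1 (13 to 19 reads). Of 12 epithelial markers, KRT8 and KRT18 held 30 to 69 reads in each library and EPCAM and CDH1 0 to 2. No reads fell on KRT5, KRT7, KRT19, CLDN3, CLDN7 or ESRP1.

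Of 4632 human genes tested, 35 (0.756%) passed limma's test at a Benjamini-Hochberg adjusted p under 0.05, and these are the genes called here. In CL 23 (0.497%) were higher and 12 (0.259%) lower, and for each of the 35 the CL and CC libraries did not overlap. At an unadjusted p under 0.05 there were 489 genes (10.6%), 236 higher (5.09%) and 253 lower (5.46%), and the median log2 difference over all genes tested was -0.00. Both CL libraries lay above both CC libraries for 998 genes (21.5%) and below them for 940 (20.3%). By edgeR's quasi-likelihood test 46 genes (0.993%) passed, 31 of them higher, and these included all 35, while DESeq2 called 16 and limma without array weights 10. On the authors' deposited scale, where the median gene was 0.15 higher in CL, 40 genes were called, 35 of them higher (87.5%, against 65.7% here), and 27 of the 35 remained. The 8 that did not were all on the lower side: MALAT1, EP300, FTSJ3, TARS1, SNAPC1, SRRM2, FLNC and GADD45A. With 1 library left out, the remaining one of its group being assumed to vary like the other groups, limma called 8 genes without CC replicate 1, 27 without CC replicate 2, 11 without CL replicate 1 and 17 without CL replicate 2. RN7SL1, RN7SL2, RMRP, RPPH1, THBS1, HSPA8 and TRIO remained called in each of these and in the other alternatives tried. With 2 libraries in each arm the smallest two-sided p of an exact permutation test is 0.333, so the calls rest on the spread that limma shares over groups and genes.

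**Figure D1:**
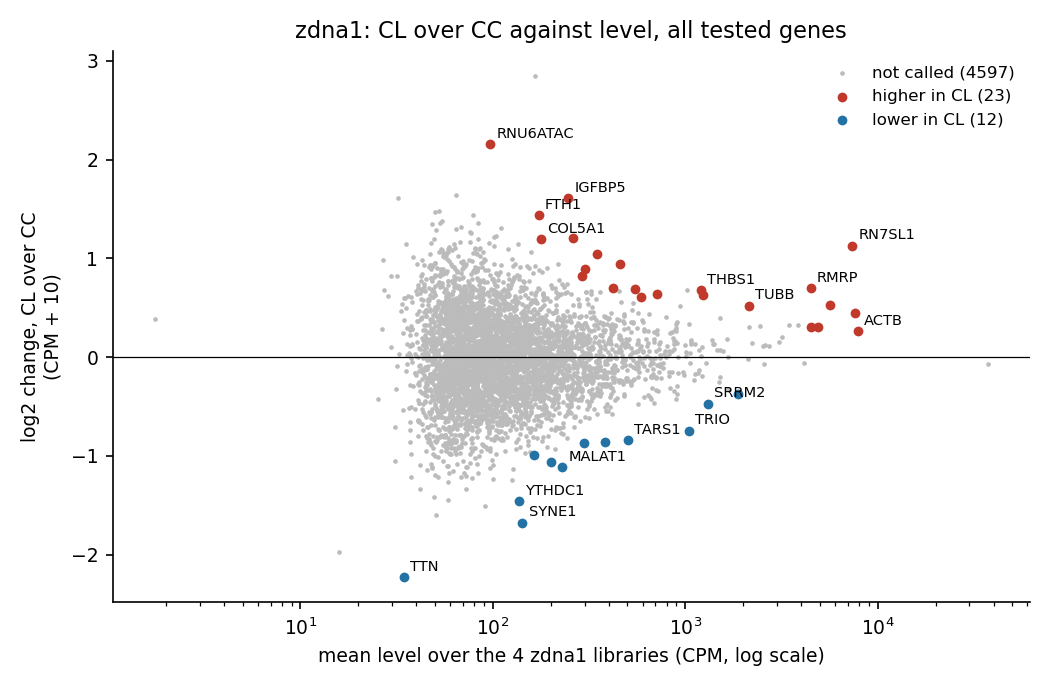
Log2 difference of CL over CC in zdna1 (vertical axis, log2 of CPM plus 10) against the mean level over the 4 zdna1 libraries (horizontal axis, CPM, log scale), 1 point per tested gene, with the 23 called genes higher in CL in red and the 12 lower in blue. RN7SL1 and RMRP are called among the abundant genes, and RNU6ATAC and TTN have the largest called differences, each at a low level. The uncalled grey point at the top is HIC1, which had 0 reads in CC replicate 1 and 23 in CC replicate 2.

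In zdna1 6 RNAs of RNA polymerase III rose in CL. Of 26 such RNAs listed, 8 were measured well enough to test. Of these, 6 were called higher and none lower, with a median log2 difference of 0.61. The median of the same list was 0.28 in zdna2, -0.44 in zdna3 and 0.43 in zdna4, and these values were not tested against one another. RN7SL1 and RN7SL2 are near-identical copies of the signal recognition particle RNA. RN7SL1 (chr14:50053298-50053596, plus strand in hg19, 1 exon) stood at 4495 and 4739 CPM in CC and 9818 and 10393 CPM in CL. Both CL libraries lay far above both CC libraries, and the log2 difference was 1.13 (SE 0.0659, adjusted p = 1.12e-20 by limma). RN7SL2 (chr14:50329269-50329567, minus strand) stood at 6410.3 and 6484 CPM in CC and 9134 and 8486 CPM in CL, a rise of 0.45 (SE 0.0622, adjusted p = 1.49e-06 by limma). The share of human-gene reads on the listed RNAs was 5.82% and 6.05% in CC and 7.004% and 6.68% in CL.

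The reads of the 2 copies did not rise alike. In CC the reads on RN7SL1 were 0.701 and 0.731 times those on RN7SL2, and in CL 1.07 and 1.22 times. The mean ratio was 0.716 ± 0.0209 (SD, n = 2) in CC and 1.15 ± 0.106 in CL, so the arms did not overlap. Over the 12 libraries of zdna2 to zdna4 the ratio ran from 0.643 to 1.38, so both arms of zdna1 lie inside the range of the series. In zdna2 it was 0.710 ± 0.0839 in CC and 0.904 ± 0.0275 in CL, and in zdna3 it was 0.831 ± 0.0687 in CC and 0.659 ± 0.0228 in CL. In zdna4 it was 1.38 ± 0.000689 in CC and 1.12 ± 0.00206 in CL. Because the copies are near-identical, how alignment split their reads bears on this ratio and was not tested.

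RMRP, the RNA of RNase MRP, and RPPH1, the RNA of RNase P, rose by smaller amounts. RMRP (chr9:35657748-35658015, minus strand) stood at 3360.3 and 3473 CPM in CC and 5726 and 5374 CPM in CL, a rise of 0.70 (SE 0.0763, adjusted p = 1.78e-09 by limma). RPPH1 (chr14:20811230-20811570, minus strand) stood at 4735 and 4562 CPM in CC and 6718 and 6679 CPM in CL, a rise of 0.53 (SE 0.0687, adjusted p = 3.49e-07 by limma). In both the 2 libraries of an arm lay close together, and the arms were clearly apart. RNA5S9 (chr1:228763893-228764013, minus strand), one of many near-identical 5S ribosomal RNA genes, had 18 and 26 reads in CC and 54 and 57 reads in CL (159.6 and 148 CPM in CC and 377 and 361 CPM in CL). It rose by 1.21 (SE 0.271, adjusted p = 0.00931 by limma). RNU6ATAC (chr9:137029562-137029686, minus strand), whose sequence is printed above, had 4 and 4 reads in CC and 27 and 22 reads in CL (35.5 and 22.8 CPM in CC and 189 and 139 CPM in CL). It rose by 2.16 (SE 0.533, adjusted p = 0.0234 by limma), the largest rise among the genes called, from few reads. RNA5S9 lost its call without any 1 of the 4 libraries (adjusted p = 0.129 to 0.315). RNU6ATAC lost it without CC replicate 1, CC replicate 2 or CL replicate 2, with rises of 2.39, 1.94 and 2.37. Without CL replicate 1 RNU6ATAC did not reach the filter of 50 CPM and was not tested.

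RN7SK and RNY1, which RNA polymerase III also makes, were not called. RN7SK stood at 37752 and 39002 CPM in CC and 38394 and 34772 CPM in CL, with overlapping arms and a log2 difference of -0.07 (SE 0.0375, adjusted p = 0.509 by limma). RNY1, a Y RNA bound by the Ro protein, stood at 355 and 473 CPM in CC and 349 and 285 CPM in CL, below CC in both CL libraries, with a difference of -0.37 (SE 0.193, adjusted p = 0.506 by limma). Both CL libraries lay below both CC libraries, as for RNY1, for 20.3% of all genes tested. Set on the authors' deposited scale, or without CL replicate 2, the difference of RN7SK was above 0.

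**Figure D2:**
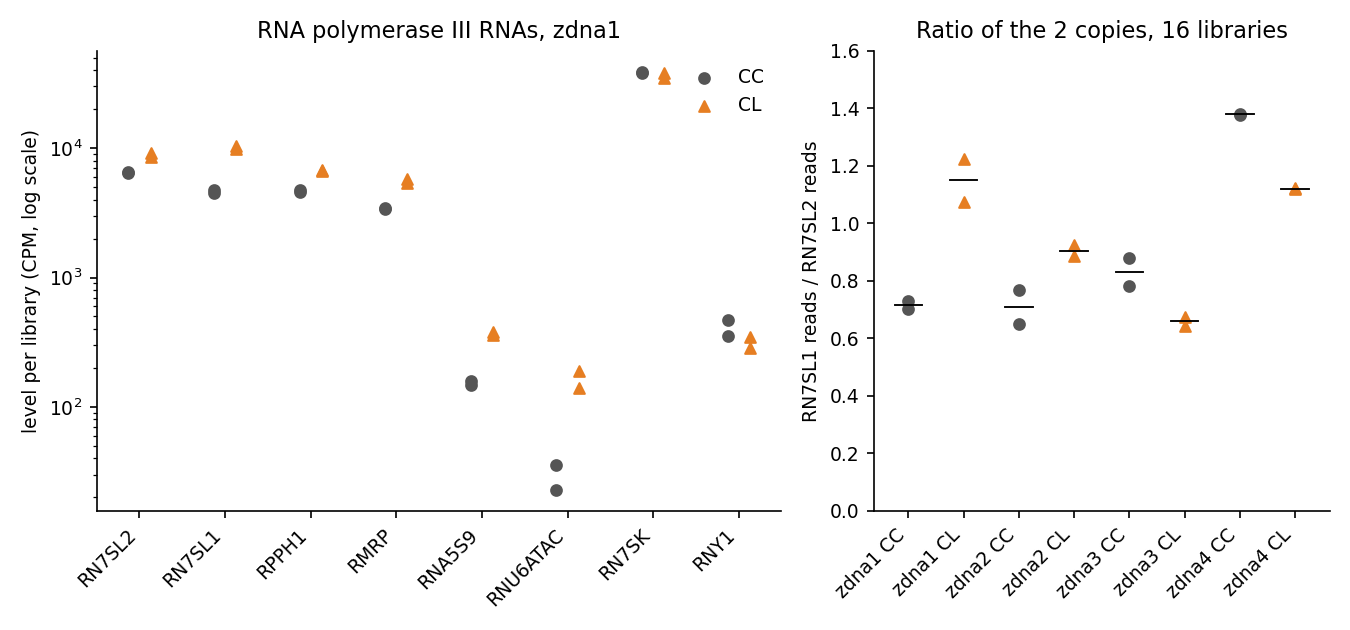
Left, the level of each tested RNA of RNA polymerase III in the 4 zdna1 libraries (CPM, log scale), with CC as circles and CL as triangles. Right, reads on RN7SL1 divided by reads on RN7SL2 in all 16 libraries, with a bar at the mean of each group. CL lies above CC for 6 of the 8 RNAs, and the ratio of the copies is higher in zdna1 CL (1.07 and 1.22) than in zdna1 CC (0.701 and 0.731).

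None of the listed proteins that work with these RNAs was called higher. None of 7 tested proteins of the signal recognition particle and its receptor was called by limma or edgeR or had an unadjusted p under 0.05, and their median was -0.13. SRP54, the subunit that binds signal peptides, was at 0.64, adjusted p = 0.617, and SRP9, which binds the Alu end of the RNA, at -0.60, adjusted p = 0.655 (log2 differences, limma). A single protein of RNase P and RNase MRP passed the filter and was not called. Among 17 tested subunits and factors of RNA polymerase III the only call was SNAPC1 (chr14:62229138-62263146, plus strand), a subunit of the complex that binds the proximal element of small nuclear RNA promoters. SNAPC1 stood at 434 and 336 CPM in CC and 244 and 171 CPM in CL and fell by 0.87 (SE 0.203, adjusted p = 0.0141 by limma); it lost the call without CC replicate 1 or CL replicate 2 (adjusted p = 0.627 and 0.596). The list's median was -0.01. Among its other members were POLR3A, the largest subunit, at -1.09, adjusted p = 0.164, POLR1C at -1.08, adjusted p = 0.385, and BDP1, a subunit of TFIIIB, at -0.77, adjusted p = 0.157 (log2 differences with limma's adjusted p).

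Spliceosomal RNAs made by RNA polymerase II were not called by limma. Of 7 tested, 2 had an unadjusted p under 0.05, and both were called by edgeR: RNU4-1 and RNU4-2, neighbouring copies of the U4 RNA. RNU4-1 stood at 3068 and 3108 CPM in CC and 4197 and 3543 CPM in CL, a difference of 0.32 (SE 0.0985, adjusted p = 0.136 by limma) (edgeR adjusted p = 0.0366), and RNU4-2 at 3555 and 3285 CPM in CC and 4679 and 3916 CPM in CL, a difference of 0.32 (SE 0.0960, adjusted p = 0.110 by limma) (edgeR adjusted p = 0.0262). For both copies the CL libraries lay above the CC libraries, as they did for 21.5% of all genes tested. RNU4ATAC, the U4atac partner of RNU6ATAC in the minor spliceosome, had 7 and 10 reads in CC and 18 and 15 reads in CL, a difference of 0.78 (SE 0.498, adjusted p = 0.613 by limma). The differences of RNU5B-1, RNU5E-1, RNU5A-1 and RNU12 were -0.19, 0.12, 0.02 and -0.01. The sign of RNU5E-1, RNU5A-1 and RNU12 changed with a library left out, and the scaling also turned that of RNU5A-1 and RNU12. One further short locus was called, MIR663A (chr20:26188822-26188914, minus strand), a microRNA hairpin with 24 and 41 reads in CC and 76 and 66 reads in CL (213 and 234 CPM in CC and 531 and 418 CPM in CL). Its reads rose by 1.05 (SE 0.230, adjusted p = 0.00777 by limma); they are reads over the hairpin locus and not a measure of the mature microRNA, and the call was lost without any 1 of the 4 libraries (adjusted p = 0.0506 to 0.424).

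IGFBP5, THBS1, COL5A1, ITGA3 and LGALS1, which encode secreted or cell surface proteins, rose in CL. IGFBP5 (chr2:217536828-217560272, minus strand), a secreted binding protein of insulin-like growth factors, had 10 and 26 reads in CC and 45 and 69 reads in CL (88.7 and 148 CPM in CC and 314 and 437 CPM in CL). Both CL libraries were above both CC libraries, and the rise was 1.61 (SE 0.254, adjusted p = 2.61e-05 by limma); it lost its call without CC replicate 1 (1.26, adjusted p = 0.0819). IRS1, the receptor substrate of the same pathway, was at 0.38, adjusted p = 0.732 by limma, and IGFBP5 was the only call among 5 tested members of the insulin-like growth factor list (median 0.22).

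THBS1 (chr15:39873280-39891667, plus strand), the matrix glycoprotein thrombospondin, stood at 1028 and 827 CPM in CC and 1459 and 1496 CPM in CL and rose by 0.67 (SE 0.109, adjusted p = 4.34e-05 by limma). COL5A1 (chr9:137533649-137736688, plus strand), a chain of fibrillar collagen V, had 12 and 18 reads in CC and 34 and 42 reads in CL (106 and 103 CPM in CC and 237 and 266 CPM in CL) and rose by 1.19 (SE 0.293, adjusted p = 0.0234 by limma). The 2 CC libraries of COL5A1 were nearly equal, and both CL libraries were far above them. It lost the call without any 1 of the 4 libraries (adjusted p = 0.190 to 0.357). ITGA3 (chr17:48133474-48167845, plus strand), the alpha subunit of a laminin receptor, stood at 328 and 513 CPM in CC and 726 and 615 CPM in CL, with its CC libraries far apart, and rose by 0.69 (SE 0.176, adjusted p = 0.0327 by limma). It lost the call without CC replicate 1, CL replicate 1 or CL replicate 2 (adjusted p = 0.920, 0.546 and 0.130). LGALS1 (chr22:38071643-38075809, plus strand), the secreted lectin galectin, stood at 488 and 439 CPM in CC and 719 and 697 CPM in CL and rose by 0.60 (SE 0.159, adjusted p = 0.0483 by limma); its call was lost without any 1 of the 4 libraries (adjusted p = 0.277 to 0.441).

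Over the matrix and osteoblast list, THBS1 and COL5A1 were the 2 calls among 23 genes tested, none was called lower, and the median was 0.36 beside -0.00 for all genes. At an unadjusted p under 0.05 there were 9 higher genes and 1 lower gene, and both CL libraries lay above both CC libraries for 16 of the 23. Over all genes tested these shares were 5.09% higher, 5.46% lower and 21.5% with both CL libraries above. TGFBI, a matrix protein that binds integrins, was at 1.35, adjusted p = 0.226, LOX, the enzyme that cross-links collagen, at 1.07, adjusted p = 0.447, and COL6A1 at 0.70, adjusted p = 0.292, while the lower gene, COL12A1, a fibril-associated collagen, was at -0.37, adjusted p = 0.436 (log2 differences with limma's adjusted p, none called). In heparan sulfate synthesis EXTL3 (chr8:28559018-28613113, plus strand), a glycosyltransferase that acts at the start of the chain, stood at 213 and 205 CPM in CC and 391 and 399 CPM in CL and rose by 0.89 (SE 0.216, adjusted p = 0.0223 by limma). It was the only call among 9 genes tested (median 0.39), and it was lost without any 1 of the 4 libraries (adjusted p = 0.168 to 0.326). NDST1, which sulfates the chain, was at 0.54, adjusted p = 0.361, and GPC1, a glypican that carries it, at 0.51, adjusted p = 0.359, neither called by limma.

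The cytoskeleton gave calls in both directions. ACTN1 (chr14:69340840-69446083, minus strand), which cross-links actin filaments, stood at 461 and 656 CPM in CC and 859 and 862 CPM in CL and rose by 0.64 (SE 0.148, adjusted p = 0.0141 by limma). LASP1 (chr17:37026112-37078023, plus strand), an actin-binding LIM protein, stood at 301 and 336 CPM in CC and 503 and 545 CPM in CL and rose by 0.70 (SE 0.180, adjusted p = 0.0357 by limma). TUBB (chr6:30688129-30693195, plus strand), a beta tubulin, stood at 1764 and 1751 CPM in CC and 2563 and 2491 CPM in CL and rose by 0.52 (SE 0.0964, adjusted p = 0.000587 by limma). In all 3 the arms did not overlap, and ACTN1 had the widest spread between its CC libraries. ACTB, FLNA and GAPDH, called but outside the rule for naming, were chosen after their values were seen. ACTB, a cytoplasmic actin, stood at 7217 and 7146 CPM in CC and 8966 and 8251 CPM in CL and rose by 0.26 (SE 0.0587, adjusted p = 0.00947 by limma). FLNA, a filamin that cross-links actin, stood at 3919 and 4169 CPM in CC and 4874 and 5082 CPM in CL and rose by 0.30 (SE 0.0717, adjusted p = 0.0191 by limma). GAPDH, the glycolytic enzyme, stood at 4008 and 4790.4 CPM in CC and 5454 and 5368 CPM in CL and rose by 0.30 (SE 0.0750, adjusted p = 0.0234 by limma). These 3 rises were the smallest of the 23, and in each the arms did not overlap.

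Of 21 actins, filamins and actin regulators tested, 3 were called higher and 2 lower, 10 had an unadjusted p under 0.05 on the higher side, and the median was 0.31. Over all genes tested, 5.09% had such a p on the higher side. MYL6, a myosin light chain, was at 0.59, adjusted p = 0.290 by limma. The 8 tested tubulins were all above 0, with a median of 0.36 and the single call TUBB. TUBA1A was at 0.67, adjusted p = 0.474 and TUBB3 at 0.59, adjusted p = 0.652 by limma. With 1 library left out, ACTN1 lost its call without CC replicate 1, CL replicate 1 or CL replicate 2 (adjusted p = 0.847, 0.308 and 0.212), LASP1 without any 1 of the 4 libraries (adjusted p = 0.102 to 0.576) and TUBB without CC replicate 1 or CL replicate 1 (adjusted p = 0.0501 and 0.0682). ACTB lost it without CC replicate 1, CC replicate 2 or CL replicate 1 (adjusted p = 0.200, 0.0616 and 0.447), FLNA without CC replicate 1, CL replicate 1 or CL replicate 2 (adjusted p = 0.547, 0.161 and 0.291) and GAPDH without CC replicate 1, CL replicate 1 or CL replicate 2 (adjusted p = 0.883, 0.388 and 0.177).

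The lower cytoskeletal genes were FLNC and TRIO. FLNC (chr7:128470460-128499328, plus strand), the filamin of muscle, stood at 2243 and 1996 CPM in CC and 1627 and 1635 CPM in CL and fell by 0.37 (SE 0.0897, adjusted p = 0.0196 by limma). The direction was opposite to that of FLNA in the same libraries, although the difference between the 2 genes was not tested. TRIO (chr5:14143451-14510313, plus strand), a large exchange factor that activates small GTPases, stood at 1294 and 1329 CPM in CC and 803 and 754 CPM in CL. Both CL libraries were far below both CC libraries, and TRIO fell by 0.75 (SE 0.118, adjusted p = 2.61e-05 by limma), the smallest p of the lower genes after SYNE1. FLNC lost its call without any 1 of the 4 libraries (adjusted p = 0.0545 to 0.634).

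SYNE1 and TTN encode giant proteins. SYNE1 (chr6:152442819-152958497, minus strand, 28131 exonic bases), which links the nuclear envelope to the cytoskeleton, had 25 and 37 reads in CC and 5 and 16 reads in CL (222 and 211 CPM in CC and 34.9 and 101 CPM in CL). The CL libraries were both lower and differed from each other by more than the CC libraries did, and SYNE1 fell by 1.68 (SE 0.263, adjusted p = 2.61e-05 by limma). It lost the call without CL replicate 1 (-1.02, adjusted p = 0.173). TTN (chr2:179390717-179672150, minus strand, 116854 exonic bases), the muscle protein titin, had 9 and 8 reads in CC and 0 and 2 reads in CL. The CC over CL ratio was 8.88 (95% interval 2.11 to 79.2, from 17 against 2 reads, counting error only). The limma adjusted p was 0.00931. The call was lost without CC replicate 1 or CL replicate 1, with log2 differences of -1.89 and -1.64. With means of 62.7 CPM in CC and 6.34 CPM in CL, the zdna1 libraries alone lay below the filter of 50 CPM. TTN was tested because its mean over all 16 libraries reached the filter.

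Reads over 401 olfactory receptor genes, which are rarely expressed outside the olfactory epithelium, moved with the arm: 25 and 26 reads in CC (222 and 148 CPM) and 8 and 9 in CL (55.9 and 57.0 CPM). At the density of these reads per exonic base, TTN would hold 13.6 of its 17 CC reads (79.7%), and SYNE1 5.26% of its CC reads. For the other 10 lower genes the share was 0.176% to 1.32%. Whether reads of that kind account for the difference in TTN was not tested. Of 17 nuclear envelope and linker genes tested, TTN and SYNE1 were the only calls, and the median of the list was 0.16. LMNB1, a nuclear lamin, lay at 0.92, adjusted p = 0.0955, and AHNAK2 at 0.35, adjusted p = 0.468, neither called by limma.

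**Figure D3:**
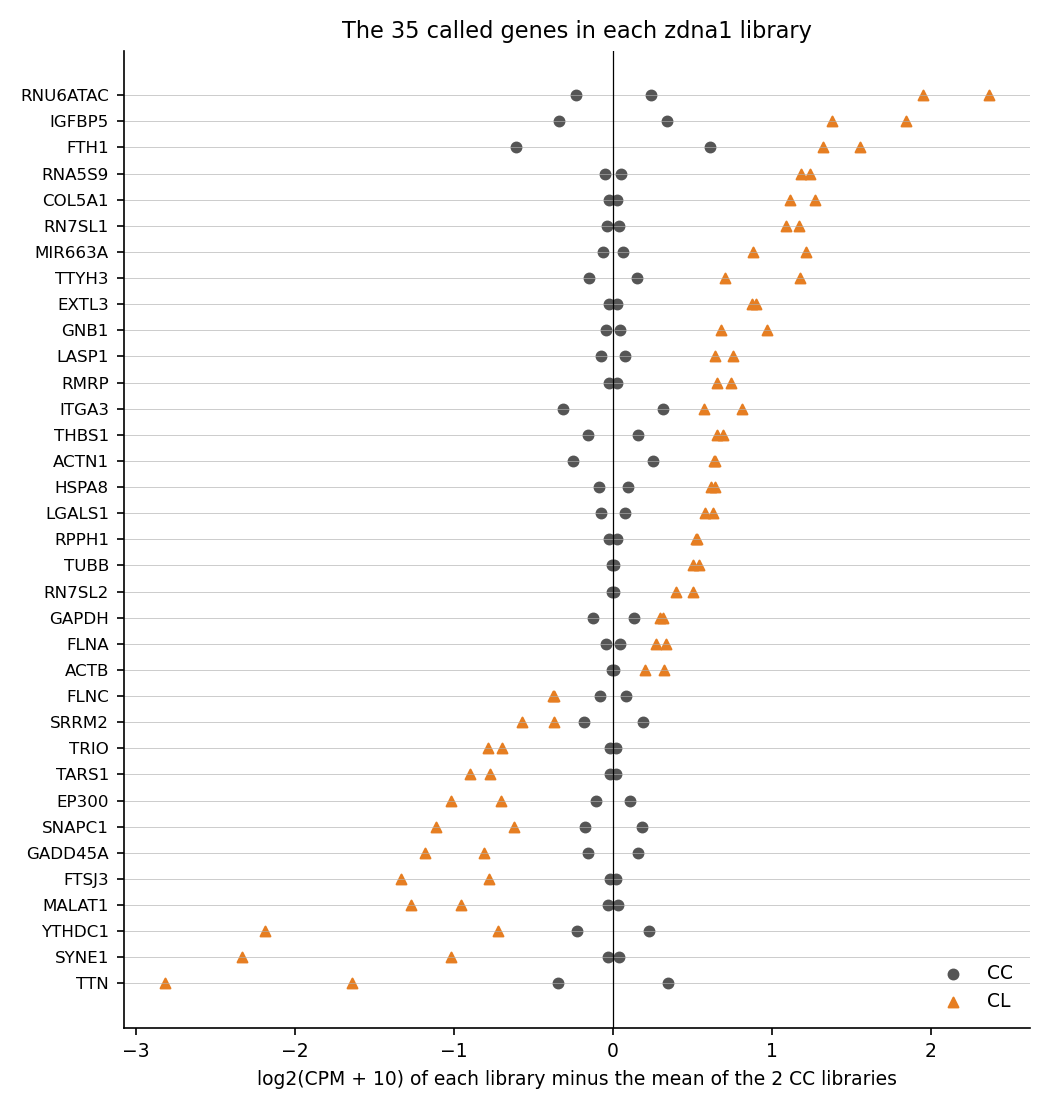
Log2 of CPM plus 10 in each zdna1 library minus the mean of the 2 CC libraries (horizontal axis), for each of the 35 called genes, with CC as circles and CL as triangles. The CL triangles lie on one side of both CC circles for every one of these genes, which the test selects for. FTH1, TTN and ITGA3 have widely spaced CC libraries, and YTHDC1, SYNE1 and TTN widely spaced CL libraries.

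MALAT1, YTHDC1, SRRM2 and EP300, which act in nuclear RNA and transcription, fell in CL. MALAT1 (chr11:65265209-65273983, plus strand), a long noncoding RNA of nuclear speckles, stood at 310.3 and 325 CPM in CC and 126 and 158 CPM in CL and fell by 1.12 (SE 0.244, adjusted p = 0.00768 by limma). NEAT1, its neighbour on the chromosome and the scaffold of paraspeckles, stood at 612 and 605 CPM in CC and 663 and 513 CPM in CL, with overlapping arms and a difference of -0.06 (SE 0.170, adjusted p = 0.936 by limma), whose sign turned on the deposited scale. YTHDC1 (chr4:69176105-69215808, minus strand), the nuclear reader of methylated adenosine, had 26 and 29 reads in CC and 5 and 18 reads in CL and fell by 1.46 (SE 0.312, adjusted p = 0.00687 by limma). SRRM2 (chr16:2802639-2821413, plus strand), a scaffold of nuclear speckles, stood at 1729 and 1334 CPM in CC and 1019.5 and 1172 CPM in CL and fell by 0.47 (SE 0.114, adjusted p = 0.0207 by limma). EP300 (chr22:41488596-41576081, plus strand), a histone acetyltransferase, stood at 532 and 456 CPM in CC and 237 and 298 CPM in CL and fell by 0.87 (SE 0.189, adjusted p = 0.00768 by limma). All 4 called genes had both CL libraries below both CC libraries, and the CL libraries of YTHDC1 were far apart. MALAT1 lost its call without any 1 of the 4 libraries (adjusted p = 0.0572 to 0.353), YTHDC1 without CC replicate 1 or CL replicate 1 (adjusted p = 0.408 and 0.711), SRRM2 without CC replicate 1, CL replicate 1 or CL replicate 2 (adjusted p = 0.855, 0.521 and 0.0788) and EP300 without CC replicate 1, CC replicate 2 or CL replicate 1 (adjusted p = 0.384, 0.0563 and 0.419).

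The lists around these genes gave few other calls. Of 11 nuclear noncoding RNAs and their readers tested, MALAT1 and YTHDC1 were the calls (median -0.06). Of 28 SR proteins and hnRNPs SRRM2 was the only call (median -0.09), with HNRNPM at 0.59, adjusted p = 0.177 and SRSF7 at -0.59, adjusted p = 0.582. Of 12 acetyltransferases and co-activators EP300 was the only call (median -0.23), with NCOA3 at -0.59, adjusted p = 0.450. These are log2 differences with limma's adjusted p.

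Other lower genes act in ribosome assembly, amino acid charging and growth arrest. FTSJ3 (chr17:61896793-61905023, minus strand), a methyltransferase of ribosomal RNA, stood at 275 and 268 CPM in CC and 154 and 101 CPM in CL and fell by 1.06 (SE 0.239, adjusted p = 0.00947 by limma). TARS1 (chr5:33440802-33468196, plus strand), the threonyl-tRNA synthetase, stood at 656 and 639 CPM in CC and 342 and 374 CPM in CL and fell by 0.84 (SE 0.164, adjusted p = 0.00155 by limma). GADD45A (chr1:68150884-68154017, plus strand), induced by growth arrest and DNA damage, stood at 195 and 245 CPM in CC and 90.8 and 120.4 CPM in CL and fell by 1.00 (SE 0.245, adjusted p = 0.0234 by limma). TARS1 had close replicates in both arms, and the CL libraries of FTSJ3 were further apart. With 1 library left out, FTSJ3 lost its call without CC replicate 1, CC replicate 2 or CL replicate 2 (adjusted p = 0.263, 0.122 and 0.482), TARS1 without CC replicate 1 or CL replicate 1 (adjusted p = 0.141 and 0.138) and GADD45A without any 1 of the 4 libraries (adjusted p = 0.102 to 0.496).

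Ribosome biogenesis had the lowest median of the lists with at least 5 tested genes, -0.34 over 38 genes, beside -0.00 for all genes. FTSJ3 was its only call. A further 10 members had an unadjusted p under 0.05 on the lower side and none on the higher side, and 29 of the 38 were below 0. Such a p was found for 5.46% of all genes tested on the lower side and 5.09% on the higher. The median of the same list was 0.08 in zdna2, -0.02 in zdna3 and -0.29 in zdna4, and these values were not tested against one another. BYSL, an assembly factor of the small subunit, was at -0.97, adjusted p = 0.433, UTP14A at -0.86, adjusted p = 0.426 and DDX18, a helicase, at -0.85, adjusted p = 0.0997 (limma, none called). Summed over the list, the level was 10161 and 10014 CPM in CC and 7605 and 8758 CPM in CL. The ribosomal proteins themselves had no limma call among 75 tested and 1 by edgeR, with 4 genes higher and 4 lower at an unadjusted p under 0.05 and a median of -0.05. Of these RPS28 was at 0.85, adjusted p = 0.186 and RPL23 at -0.58, adjusted p = 0.136 by limma.

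TARS1 was the only call among 28 tRNA synthetases and amino acid response genes (median -0.00), with CARS1 at -0.60, adjusted p = 0.566 and KARS1 at -0.48, adjusted p = 0.450. GADD45A was the only call among 18 targets of p53 (median -0.21), with PPM1D at -0.64, adjusted p = 0.313 and XPC at -0.62, adjusted p = 0.468. Translation factors had no call by limma or edgeR among 33 tested (median -0.07), with 2 higher and 7 lower at an unadjusted p under 0.05, among them EIF4G3 at -0.84, adjusted p = 0.271 and EIF5 at 0.68, adjusted p = 0.290. All values are log2 differences with limma's adjusted p. The shares of all genes tested at an unadjusted p under 0.05 were 5.09% higher and 5.46% lower.

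Iron, chaperone and membrane genes supplied the remaining rises. FTH1 (chr11:61731757-61735106, minus strand), the ferritin heavy chain that oxidises iron for storage, had 6 and 24 reads in CC and 33 and 43 reads in CL (53.2 and 137 CPM in CC and 230.4 and 273 CPM in CL). Its 2 CC libraries were far apart, both lay below CL, and FTH1 rose by 1.44 (SE 0.314, adjusted p = 0.00768 by limma). FTL, the light chain of the same shell, stood at 1011 and 907 CPM in CC and 1082 and 1001 CPM in CL, with overlapping arms and a difference of 0.12 (SE 0.133, adjusted p = 0.804 by limma). FTH1 was the only call among 10 iron genes (median 0.13), where HMOX1 was at 0.73, adjusted p = 0.595, STEAP3 at 0.71, adjusted p = 0.465 and TFRC, the transferrin receptor, at -0.60, adjusted p = 0.638 by limma. FTH1 lost its call without CC replicate 1, CL replicate 1 or CL replicate 2 (adjusted p = 0.797, 0.126 and 0.232).

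HSPA8 (chr11:122928197-122932844, minus strand), the constitutive cytosolic Hsc70 chaperone, stood at 1037 and 912 CPM in CC and 1494 and 1521 CPM in CL and rose by 0.63 (SE 0.106, adjusted p = 0.000109 by limma). It was the only call among 15 chaperones (median 0.08), where HSPH1 was at 0.58, adjusted p = 0.387 and HSPB1 at 0.42, adjusted p = 0.405. TTYH3 (chr7:2671620-2704436, plus strand), a membrane protein of the tweety family, stood at 275 and 342 CPM in CC and 705 and 507 CPM in CL and rose by 0.94 (SE 0.205, adjusted p = 0.00768 by limma). GNB1 (chr1:1716724-1822556, minus strand), a beta subunit of heterotrimeric G proteins, stood at 213 and 199.6 CPM in CC and 412 and 336 CPM in CL and rose by 0.82 (SE 0.209, adjusted p = 0.0327 by limma). TTYH3 and GNB1 were the calls among 16 G protein and channel genes (median 0.03), where GNA12 was at -0.75, adjusted p = 0.343. TTYH3 lost its call without CC replicate 1 or CL replicate 1 (adjusted p = 0.414 and 0.471) and GNB1 without any 1 of the 4 libraries (adjusted p = 0.129 to 0.546).

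Cholesterol and fatty acid synthesis had no call among 16 genes tested by limma or edgeR, with a median of 0.48. Of the 16, 15 were above 0, 4 had an unadjusted p under 0.05, and both CL libraries lay above both CC libraries for 10. Over all genes tested, 5.09% had such a p on the higher side and 21.5% had both CL libraries above both CC libraries. The median of the same list was 0.13 in zdna2, 0.20 in zdna3 and 0.50 in zdna4, and these values were not tested against one another. FADS2 and FADS1, neighbouring desaturase genes, were at 0.78, adjusted p = 0.212 and 0.73, adjusted p = 0.319, and SCD, the stearoyl desaturase, at 0.66, adjusted p = 0.141 (log2 differences with limma's adjusted p). SCD stood at 204 and 268 CPM in CC and 370.1 and 380.2 CPM in CL. Hypoxia and glycolysis genes had GAPDH as the only call among 23 (median 0.02), with PFKL at 1.10, adjusted p = 0.304 and VEGFA at -0.74, adjusted p = 0.352.

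The proteins in the title of the series and the genes around them were not called. MYC stood at 337 and 405 CPM in CC and 349 and 228 CPM in CL, with overlapping arms and a difference of -0.38 (SE 0.183, adjusted p = 0.453 by limma). MAX, its partner, was at -0.09, adjusted p = 0.962 (above 0 on the deposited scale), and no gene of the MYC network was called by limma or edgeR among 10 tested (2 lower at an unadjusted p under 0.05, median -0.14). Its widest other members were MGA at -0.71, adjusted p = 0.136 and MLXIP at 0.52, adjusted p = 0.577. Of the FACT subunits SUPT16H stood at 434 and 325 CPM in CC and 265 and 304 CPM in CL, both CL libraries below CC, with a difference of -0.39 (SE 0.194, adjusted p = 0.468 by limma), and SSRP1 stood at 514 and 519 CPM in CC and 412 and 539 CPM in CL, with overlapping arms and a difference of -0.13 (SE 0.171, adjusted p = 0.828 by limma), which was above 0 on the deposited scale. HMGB2, in the same list of 4 tested genes, had the highest value, 1.21, adjusted p = 0.0614, just outside the threshold. Both CL libraries lay below both CC libraries, as for SUPT16H, for 20.3% of all genes tested.

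DNA topoisomerases relieve supercoiling, and negative supercoiling favours Z-DNA. None of 5 was called by limma or edgeR, and 1, TOP1, had an unadjusted p under 0.05. TOP1 stood at 337 and 199.6 CPM in CC and 139.7 and 171 CPM in CL, both CL libraries below CC, with a difference of -0.71 (SE 0.272, adjusted p = 0.275 by limma). Both CL libraries lay below both CC libraries, as for TOP1, for 20.3% of all genes tested. TOP1MT was the widest on the higher side, at 0.51, adjusted p = 0.698 by limma. TOP2A was at 0.22, adjusted p = 0.712 and TOP2B at -0.34, adjusted p = 0.717. ADAR, the editing enzyme with a Z-DNA binding domain, stood at 364 and 325 CPM in CC and 349 and 399 CPM in CL, with overlapping arms and a difference of 0.12 (SE 0.198, adjusted p = 0.881 by limma). ZBP1, the sensor of Z-form nucleic acids, had 0 reads in each of the 4 libraries and was not tested. None of 10 genes for Z-nucleic acid and double-stranded RNA binding proteins was called by limma or edgeR or had an unadjusted p under 0.05 (median 0.04); DROSHA, one of the widest, was at 0.35, adjusted p = 0.679. The same held for the 2 interferon-stimulated genes tested, with STAT2 at 0.23, adjusted p = 0.886.

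Signalling and cell cycle lists had no call by limma or edgeR. Over all genes tested, 5.09% were higher and 5.46% lower at an unadjusted p under 0.05, which is the share to set beside each count. At an unadjusted p under 0.05, AP-1 and immediate early genes had 1 higher and 1 lower of 16 (median -0.19), with JUNB at 1.61, adjusted p = 0.212, FOS at 0.98, adjusted p = 0.470 and ATF3 at -0.70, adjusted p = 0.363. Targets of YAP and TGF-beta had 2 higher and 2 lower of 13 (median -0.10), with TGFB1 at 0.64, adjusted p = 0.351 and CCN2 at 0.64, adjusted p = 0.212 on the higher side, and TGFB2 at -0.53, adjusted p = 0.217 and ANKRD1 at -0.51, adjusted p = 0.332 on the lower. Mitosis genes had 4 higher and 1 lower of 44 (median 0.12), with PLK1 at 1.30, adjusted p = 0.0955, KIF20B at -0.90, adjusted p = 0.450 and CCNB1 at 0.76, adjusted p = 0.277. S phase genes had 1 higher of 27 (median 0.08), with CDT1 at 0.92, adjusted p = 0.553 and UHRF1 at 0.70, adjusted p = 0.440. DNA repair had 1 higher and 1 lower of 21 (median 0.11), with XRCC1 at 0.97, adjusted p = 0.479, FANCI at 0.77, adjusted p = 0.316 and, on the lower side, XRCC6 at -0.38, adjusted p = 0.308.

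Histone genes had 3 higher and 3 lower of 29 (median 0.19), with H3C1 at 1.38, adjusted p = 0.177, H2BC15 at 1.06, adjusted p = 0.198 and, on the lower side, H4C5 at -0.61, adjusted p = 0.139. Proteasome genes had 3 lower of 31 (median -0.17), with PSMD4 at -0.67, adjusted p = 0.426 and PSMD11 at -0.58, adjusted p = 0.290. Respiratory chain genes had 3 higher and 1 lower of 37 (median -0.14), with NDUFV1 at 1.12, adjusted p = 0.376, COX6B1 at 1.09, adjusted p = 0.264 and, on the lower side, UQCRB at -0.83, adjusted p = 0.330. COL12A1, XRCC6 and UQCRB were chosen after their values were seen. These are counts at an unadjusted p under 0.05 and limma's adjusted p, and no gene of these 3 lists was called by limma or edgeR. The shares of all genes tested at that p were 5.09% higher and 5.46% lower.

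**Figure D4:**
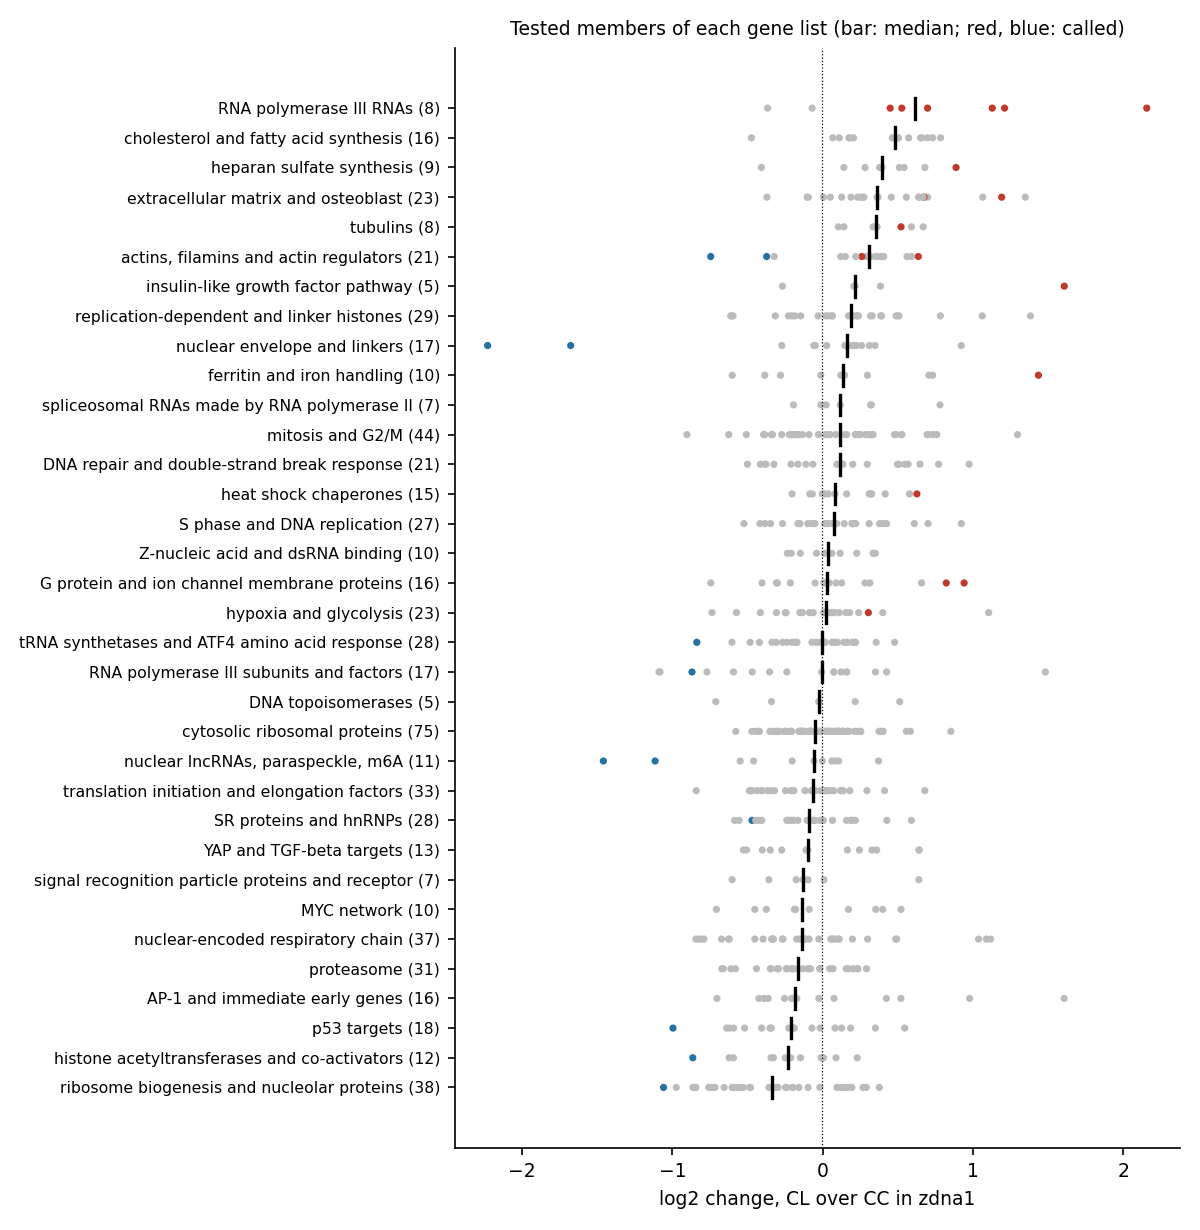
Log2 difference of CL over CC in zdna1 (horizontal axis) for the tested genes of each list with at least 5 of them, with the number tested in brackets, called genes in red (higher) or blue (lower), a bar at each list's median and a dotted line at the median of all genes tested. The RNAs of RNA polymerase III have the highest median (0.61) and 6 of the called genes, and ribosome biogenesis has the lowest (-0.34) with 1.

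Near the threshold, the called genes with the largest adjusted p were ITGA3 (0.0327), LASP1 (0.0357) and LGALS1 (0.0483). Just outside it were RPL36AL at -0.91, adjusted p = 0.0596, HMGB2 at 1.21, adjusted p = 0.0614 and SBF2 at 1.36, adjusted p = 0.0614, by limma. RPL36AL encodes a ribosomal protein, HMGB2 a chromatin protein and SBF2 a regulator of Rab GTPases.

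The called genes differed in length and exon number, given here with no test. The 23 higher genes had a median exonic length of 2264 bases and a median of 6 exons, the 12 lower genes 8777 bases and 21 exons, and the uncalled genes 4522 bases and 12 exons. The 67 tested genes under 500 exonic bases had a median log2 difference of 0.22, with 7 higher and none lower (10.4% called). These 7 were the 6 called RNAs of RNA polymerase III and MIR663A, described above. The 1520 genes over 6000 bases had a median of -0.03, with 5 higher and 8 lower. That is 0.855% called, near the 0.756% of all genes tested. The medians of the 3 bins between were 0.03, -0.01 and 0.01. Among 112 genes with 1 exon the median was 0.14, with the same 7 genes higher and 1, MALAT1, lower (7.14% called). In zdna2, zdna3 and zdna4 the genes under 500 bases had medians of -0.00, -0.11 and 0.15.

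Within the other numbers CL over CC gave 8 calls in zdna2 (0.173%), 4 in zdna3 (0.0864%) and 54 in zdna4 (1.17%) by limma. The CL over CC difference in zdna1 was set against the mean of those in zdna2 and zdna3. That contrast left zdna4 out because its CC libraries stood apart, with 1538 and 1611 CPM over the olfactory receptor genes against 55.9 to 401 CPM in the other 14 libraries. Limma called 14 genes in it (0.302%), 7 with the larger value in zdna1 and 7 with the smaller (0.151% each), and edgeR called 19, including all 14. Of the 14, 11 were also called in zdna1 itself. With zdna4 in the mean as well, a contrast added after the data were seen, limma called 9 genes (0.194%), and 7 of the 14 were among them: RN7SL1, RN7SL2, RPPH1, RMRP, IGFBP5, TRIO and RPL4. Against zdna4 alone, 2 of the 14 differed, RN7SL1 by 1.30 (adjusted p = 3.71e-11) and RMRP by 0.60 (adjusted p = 0.0378, limma), so the other 12 were not shown to differ from zdna4.

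RN7SL1 rose by 1.13 in zdna1, beside 0.50 in zdna2, -0.52 in zdna3 and -0.17 in zdna4, and the contrast with zdna2 and zdna3 was 1.14 (SE 0.0912, adjusted p = 2.06e-14 by limma). RPPH1 and RN7SL2 gave contrasts of 0.53 (SE 0.0950, adjusted p = 0.00126 by limma) and 0.47 (SE 0.0861, adjusted p = 0.00126 by limma). For RN7SL2 the single differences were 0.31 (adjusted p = 0.124) from zdna2 and 0.63 (adjusted p = 0.0025) from zdna3 (limma). For RPPH1 the values were 0.53 in zdna1, 0.41 in zdna2, -0.43 in zdna3 and 0.39 in zdna4, and the single differences were 0.11 (adjusted p = 0.768) from zdna2 and 0.95 (adjusted p = 2.29e-06) from zdna3 (limma). RMRP had a contrast of 0.45 (SE 0.106, adjusted p = 0.0285 by limma). It also rose in zdna2, by 0.43 (adjusted p = 0.000983 by limma), and stood at 0.07 in zdna3 and 0.10 in zdna4, and its single differences were 0.27 (adjusted p = 0.450) from zdna2 and 0.63 (adjusted p = 0.0422) from zdna3 (limma). RNA5S9 had a contrast of 1.76 (SE 0.375, adjusted p = 0.00849 by limma), with -0.29 in zdna2, -0.82 in zdna3 and 0.63 in zdna4. Taken singly, it was not shown to differ from zdna2 or from zdna3 (limma adjusted p = 0.0727 and 0.0832).

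IGFBP5 was at -0.61 in zdna2, 0.01 in zdna3 and 1.08 in zdna4, none of them called, and its contrast was 1.91 (SE 0.352, adjusted p = 0.00126 by limma). TUBB had a contrast of 0.65 (SE 0.133, adjusted p = 0.00479 by limma), with -0.11 in zdna2 and -0.16 in zdna3, but it also rose in zdna4, by 1.09 (adjusted p = 4.54e-06 by limma). The difference between zdna1 and zdna4 was -0.57 (adjusted p = 0.196 by limma). With zdna4 in the mean its contrast was 0.24 (adjusted p = 0.620 by limma). The single differences of TUBB were 0.63 (adjusted p = 0.0196) from zdna2 and 0.68 (adjusted p = 0.129) from zdna3 (limma). The lower side held SYNE1 (-1.78 (SE 0.364, adjusted p = 0.00479 by limma)), TRIO (-0.82 (SE 0.163, adjusted p = 0.00396 by limma)), FLNC (-0.67 (SE 0.124, adjusted p = 0.00126 by limma)) and GADD45A (-1.52 (SE 0.339, adjusted p = 0.0157 by limma)). FLNC was at 0.19 in zdna2 and 0.40 in zdna3, against -0.37 in zdna1, and in zdna4 it fell by 0.57 (adjusted p = 0.0364 by limma). GADD45A was at 0.72 in zdna2, 0.32 in zdna3 and -0.62 in zdna4, SYNE1 at 0.42 in zdna2, -0.20 in zdna3 and -1.42 in zdna4 and TRIO at -0.01 in zdna2, 0.15 in zdna3 and -0.43 in zdna4, so all 4 genes were below 0 in zdna4 as in zdna1. Taken singly, SYNE1, TRIO and GADD45A differed from zdna2 (limma adjusted p = 0.000963, 0.0269 and 0.00721). They were not shown to differ from zdna3 (limma adjusted p = 0.418, 0.0754 and 0.432). FLNC differed from both (limma adjusted p = 0.0269 and 0.0253). A further 3 genes were called in the contrast without being called in zdna1 and were chosen after their values were seen: RPL4, a ribosomal protein (-0.64 (SE 0.140, adjusted p = 0.0119 by limma)), YTHDF1, a cytoplasmic reader of methylated adenosine (-1.59 (SE 0.373, adjusted p = 0.0285 by limma)), and H4C5, a histone gene (-1.12 (SE 0.263, adjusted p = 0.0285 by limma)). The contrast gave 3 genes with zdna1 CC replicate 1 left out, 6 with zdna1 CC replicate 2 or zdna1 CL replicate 1 left out, and 50 with zdna3 CC replicate 1 left out. It gave 2 without array weights. The zdna3 CC libraries were the shallowest in the contrast, with 55606 and 42494 human-gene reads.

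**Figure D5:**
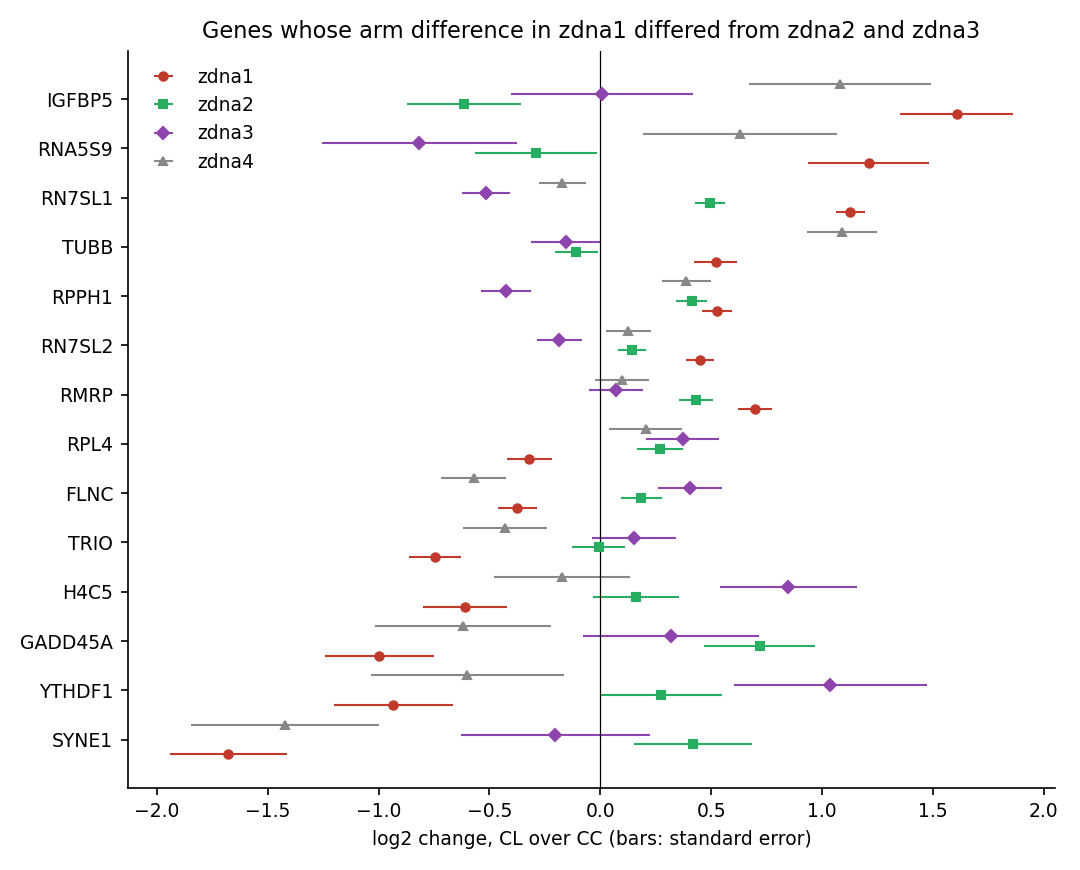
CL over CC log2 difference (horizontal axis, bars are standard errors) in zdna1 to zdna4 for the 14 genes called in the contrast of zdna1 with the mean of zdna2 and zdna3. RN7SL1 is at 1.13 in zdna1 and 0.50 in zdna2, -0.52 in zdna3 and -0.17 in zdna4, while IGFBP5, RNA5S9 and TUBB lie above 0 in zdna1 and zdna4 (1.08, 0.63 and 1.09 in zdna4) and at 0.01 or lower in zdna2 and zdna3.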

How the data were processed

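RNA of U2OS cells was sequenced in 16 libraries, 4 of them zdna1, with replicates and groups taken from the titles. Total RNA was taken with Trizol, per the labels. Per the submitters' processing notes, Trim Galore 0.6.6, STAR and bedtools 2.29.2 were used, with hg19 and dm6 named. Per the file headers, featureCounts 2.0.1 counted read pairs over exons of hg19 and the zdna1 contig, with the strand option unset, so antisense and overlapping genes cannot be told apart. The deposited values are a scaled signal, counts multiplied by 1 constant per library whose derivation the sources used here do not state. A folder listed there is labelled as spike-in, and dm6 is a second genome beside hg19. Whether the constant is a spike-in scaling was not tested. Dividing by the smallest step gave whole reads (within 0.1 read) for 100% of nonzero values, and these replaced the signal.

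Of 28207 human genes, the 4632 whose mean over the 16 libraries reached 50 CPM were tested with limma 3.58.1 on log2(CPM + 10), with TMM factors from edgeR 4.0.16, 8 group means in 1 fit, array weights per group and a mean trend (R 4.3.3). Tests were two-sided with Benjamini-Hochberg adjustment at 0.05 over all genes tested, and log2 differences understate those of low genes. The untested genes held 16.4% to 16.7% of zdna1 reads. edgeR's quasi-likelihood test and DESeq2 1.42.0 on the recovered reads, other scalings, pseudocounts, filters and samples were alternatives. Tests were tried on simulated counts. Chi-square tests separated the replicates beyond counting noise (p = 0.00358 for CC over 3506 genes and 0.00203 for CL over 3719). The excess was small, with chi-square values of 3734 in CC and 3971 in CL beside 3505 and 3718 expected from counting alone. It does not show whether the replicates were separate cultures.

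Named genes were up to 15 called higher and 15 lower of largest difference, the 3 on each side of the threshold, up to 8 called in the contrast between numbers, 9 fixed genes, and up to 4 members of each of 37 gene lists, of which a few are not reported here. The libraries, lists and rules were chosen with earlier results of these data known. Positions are those of the files; near-identical copies (RN7SL, 5S, U4, histones, actins, tubulins) are uncertain.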

Additional observations from a re-analysis of the deposited data

Results flagged for a closer look

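For 14 genes the CL over CC difference in zdna1 differed from the mean of those in zdna2 and zdna3 by limma's test of that contrast at an adjusted p under 0.05. The contrast, zdna1 minus the mean of the others on the log2 scale, was 1.14 for RN7SL1, 0.53 for RPPH1, 0.47 for RN7SL2, 0.45 for RMRP and 1.76 for RNA5S9, all RNAs of RNA polymerase III. It was 1.91 for IGFBP5 and 0.65 for TUBB. On the lower side it was -1.78 for SYNE1, -1.59 for YTHDF1, -1.52 for GADD45A, -1.12 for H4C5, -0.82 for TRIO, -0.67 for FLNC and -0.64 for RPL4. With zdna4 in the mean as well, 7 of the 14 were called, and TUBB and FLNC, which changed the same way in zdna4, were not. RN7SL1 was called in each of the 26 other alternatives run for this contrast, FLNC in 25, RPPH1 in 24, IGFBP5 and RN7SL2 in 22 each, and RMRP in 13, the fewest of the 14.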

How the results depend on the processing

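The number of genes called in zdna1, 35 by limma, stayed within 1.5 times under 13 of 19 alternatives, among them edgeR 46, library totals 30, DESeq2 size factors 34, the deposited scale 40, TMM over every gene 39, a pseudocount of 2 or 50 CPM 32 and 39, a minimum of 10 CPM 33, no filter 50 (12 of the 35 among them), no zdna4 libraries 36 and only the zdna1 libraries 49. It was 16 by DESeq2, 53 with a minimum of 200 CPM and 10 without array weights, and 8 to 27 with 1 library left out. No called gene changed direction, and 7 of the 35 kept their call throughout. The 14 calls of the contrast with zdna2 and zdna3 became 9 with zdna4 in the mean (chosen after seeing the data), 23 on the deposited scale (3 higher, 20 lower), 28 at 200 CPM, 4 with no filter, 2 without array weights and 3 to 50 with 1 library left out. For single genes, 2110 values stayed on their side of the threshold, 181 (28 genes) lost a call and 24 (12 genes) gained one. The cause of these shifts was not tested.

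No pairing by replicate number was seen, although replicates differed little beyond counting noise, which limits what a correlation of their deviations can show. The deviations of replicate 1 from replicate 2 in zdna1 CC and in zdna1 CL correlated at 0.0511 over 919 genes. Over all 28 pairs of groups the correlations ran from -0.0703 to 0.0589. With a replicate block 31 genes were called, 30 of them shared, and 12 in the contrast.

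Signs turned in uncalled genes alone. On the deposited scale MAX was at 0.0606, SSRP1 at 0.0320, RN7SK at 0.0948, RNU12 at 0.151 and NEAT1 at 0.105. With library totals RNU5A-1 was at -0.0106. RNU12 was at 0.0216 with TMM over every gene and with no filter. With 1 library left out the range was -0.47 to 0.31 for MAX, -0.31 to 0.061 for SSRP1, -0.14 to 0.012 for RN7SK, -0.043 to 0.29 for RNU5E-1, -0.25 to 0.31 for RNU5A-1, -0.12 to 0.11 for RNU12, -0.24 to 0.13 for NEAT1 and -0.088 to 0.57 for STAT2.

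Depth limited the low genes: 1 read was worth 5.849 to 8.996 CPM in zdna1, so a difference in a gene near 50 CPM rests on few reads.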

Other observations

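HIC1, a transcriptional repressor, was not called but had the widest difference of all genes tested in zdna1, 2.85 on the log2 scale (adjusted p = 0.164 by limma). It had 0 and 23 reads in CC and 45 and 34 reads in CL. GEM, a small GTPase, had 2 and 8 reads in CC and 0 and 0 reads in CL (adjusted p = 0.0676 by limma), and ELOC, a subunit of the elongin complex, had 10 and 13 reads in CC and 3 and 3 reads in CL (adjusted p = 0.0955 by limma). These 3 genes were chosen after their values were seen.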
